A study of Mus musculus with 18 samples.

Results

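Dscam and 9 other genes for neural adhesion molecules of the immunoglobulin superfamily were followed in the external granule cell layer at birth, in Ts1Cje and euploid mice. They were chosen by name, as Dscam, Dscaml1, Ncam1, Ncam2, Robo1, Robo2, L1cam, Chl1, Cntn1 and Cntn2, and every array probe annotated to one of these symbols was taken. Of the 17711 genes named on the array 9 are among these 10. No probe was named for Dscaml1, which is not analysed here. The 9 genes had 30 probes, of which 17 probes of 8 genes were among the brightest 25% of the array, which were tested. L1cam had a single probe, under that limit.

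Total RNA came from individual layers dissected at birth (P0), 9 from Ts1Cje mice and 9 from euploid mice, each layer on 1 Illumina bead array. The labels give the strain of all mice as B6EiC3SnF1/J A/a, while the study's methods name a B6C3SnF1/Orl mixed background. Ts1Cje males had been bred with wild-type females. Ts1Cje mice carry an additional copy of the Mmu16 segment from Sod1 to Znf295, translocated onto Mmu12, where a short segment is deleted, so that a trisomy and a monosomy of other genes go together in every Ts1Cje sample. The mice came from 3 litters of 6, with 3 mice of each genotype in a litter. Each litter filled 1 slide of its own, and the effects of litter and slide cannot be told apart. The source label of 2 euploid samples of litter 2 (euploid replicates 5 and 6) names cerebellum, while their tissue field names the external granule cell layer as for all others.

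Adhesion molecules of this superfamily stand on the surface of growing axons and dendrites and hold immunoglobulin domains, mostly followed by fibronectin type III domains. They bind copies of themselves or partners on neighbouring cells, or, for the Robo receptors, secreted Slit ligands. In the developing cerebellum Cntn2 (also called TAG-1) is known as a marker of granule cells in the inner, postmitotic part of the external layer, and L1, Ncam and the contactins are known from the parallel fibres and migrating granule cells. Dscam is known for self-avoidance, by which branches of a cell or of like cells keep apart, in the mouse retina, and also binds netrin. Among the 10 genes Dscam is the only one inside the three-copy segment. Ncam2, Robo1 and Robo2 also lie on Mmu16 by the annotation, outside that segment and therefore in 2 copies. Ncam1 and Dscaml1 lie on Mmu9, Cntn2 on Mmu1, Chl1 on Mmu6, Cntn1 on Mmu15 and L1cam on the X chromosome.

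The array probe sequences were not used here. The primer pair that the study designed for quantitative PCR of Dscam, the gene on which the results turn, is shown to identify its own Dscam assay, whose measurements were not analysed here. Both primers have 19 bases and are written 5′ to 3′, in lower case throughout since no base is singled out.
Dscam left primer: ctcgtggatgtctccgatg
Dscam right primer: agcctttgcattcctcctg

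The values are log2 signals normalized by the authors to the same array mean, 6.69 on every array. The SD of the log2 signals of an array lay between 1.46 and 1.63, and 2 euploid arrays of litter 2 (euploid replicates 4 and 6) had the smallest SDs. Pairs of arrays had correlations of 0.981 to 0.995. The tissue label was set against marker genes. Zic1, a transcription factor of granule cell precursors, had a mean log2 signal of 12.79 over the 18 mice, and Pax6 and Barhl1, transcription factors of the granule lineage, had 11.99 and 7.31. Atoh1, the transcription factor that defines the precursors, was at 5.69 and not among the tested probes. Of 11 precursor markers with a probe 8 were tested, as were 10 of 15 markers of postmitotic granule cells. Markers of other cells were measured as well, and 8 of 11 Purkinje cell markers were tested, with Pcp2 at 11.49. Signals of different probes are not compared as levels, because each probe binds with its own efficiency.

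Dscam was higher in Ts1Cje than in euploid layers on each of its 3 probes, by 1.39 to 1.47 times, and it was the only one of the 8 tested members past an adjusted p of 0.05, a threshold that 38 of all 11658 tested probes (0.326%) passed, 34 of them (0.292%) higher and 4 (0.0343%) lower in Ts1Cje. Its 3 probes bind the same transcript record and are not 3 independent measurements of a mouse.

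On probe 1, the brightest, log2 signals ran from 9.17 over a median of 9.38 to 9.77 in the euploid mice. In the Ts1Cje mice they ran from 9.59 over a median of 10.10 to 10.27. Of the 9 Ts1Cje mice 7 stood above every euploid mouse, as did at least 7 on 0.463% of all tested probes, and the other 2, both of litter 3, lay within the euploid range. The means were 10.01 ± 0.23 and 9.45 ± 0.21 (SD, n = 9 each), a difference of 0.55 with an SE of 0.10 on the log2 scale. This is an expression ratio (Ts1Cje/euploid) of 1.47, with a 95% confidence interval of 1.27 to 1.70, and an adjusted p of 0.00901 by limma with Benjamini-Hochberg adjustment. With litter as a block the adjusted p was 0.00047. The exact permutation test over all 48620 splits of the mice gave p = 0.00041 (two-sided), and over the 8000 splits within litters p = 0.00025, the smallest these can give.

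On probe 2 the euploid mice ran from 7.08 over 7.28 to 7.72 and the Ts1Cje mice from 7.59 over 7.82 to 8.08. The groups overlapped, and 6 of the 9 Ts1Cje mice exceeded every euploid mouse, a number reached or exceeded by 0.781% of tested probes. The difference was 0.51 with an SE of 0.091, a ratio of 1.43 (95% confidence interval 1.25 to 1.63), with a limma adjusted p of 0.00749. On probe 3 the euploid mice ran from 6.90 over 7.15 to 7.35 and the Ts1Cje mice from 7.42 over 7.63 to 7.87. Here the groups did not overlap, and the difference of 0.48 with an SE of 0.071 gave a ratio of 1.39 (1.26 to 1.54) and a limma adjusted p of 0.00153. Of all tested probes 0.12% had every Ts1Cje mouse above every euploid mouse.

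**Figure D1:**
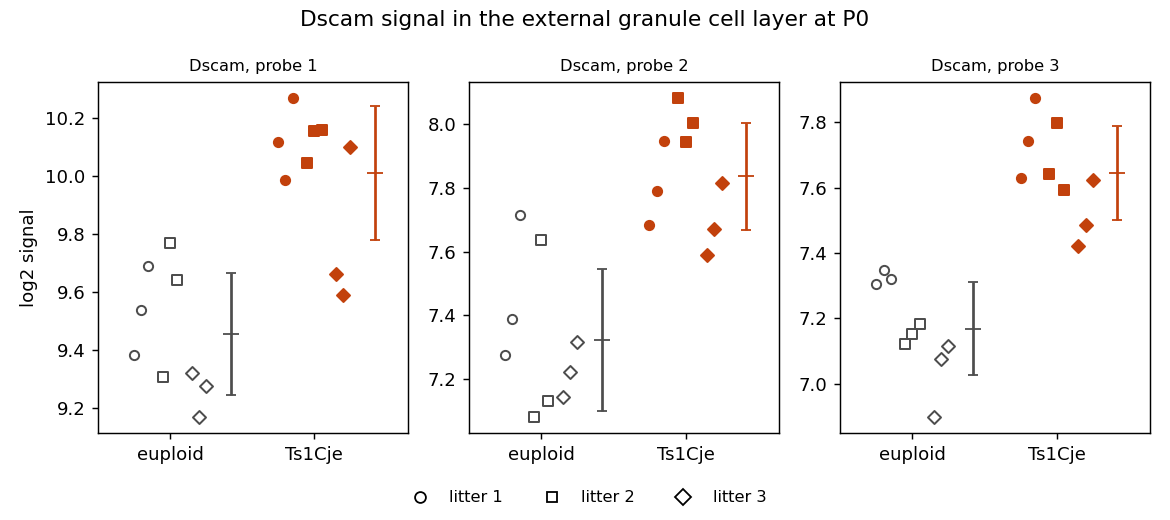
Log2 signal of Dscam on its 3 probes (vertical axes, each with its own range) in 9 euploid (open) and 9 Ts1Cje (filled) mice, with the litter as the shape of the point and the mean ± SD of each genotype at its right. On probe 3 the lowest Ts1Cje mouse, at 7.42, lies above the highest euploid mouse, at 7.35, whereas on probes 1 and 2 the groups overlap.

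Of the 17 tested member probes 3 passed without and with litter as a block, all of Dscam. With the block 0.583% of all tested probes passed. The call on probe 1 was lost when litter 1 was left out (difference 0.54, limma adjusted p = 0.266) and when litter 2 was left out (0.56, limma adjusted p = 0.237). Over all 16 alternatives the differences stayed between 0.51 and 0.63, the lowest being the mean over the 3 Dscam probes.

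The genotype difference of Dscam was above 0 in each of the 3 litters. On probe 1 it was 0.59 in litter 1, 0.55 in litter 2 and 0.53 in litter 3, with 3 mice of each genotype. On probe 3 it was 0.42, 0.52 and 0.48 in the same order. Probe 2 spread more, with 0.35, 0.73 and 0.47. In litter 2 euploid replicates 4 and 6, the arrays of smallest SD, were at 7.08 and 7.13 on probe 2, against 7.64 in euploid replicate 5. Their part in the larger difference of that litter was not tested. An exact permutation test of 3 against 3 mice cannot go below p = 0.1, so the litters were not tested one by one. The genotype by litter interaction had unadjusted limma p-values of 0.958, 0.171 and 0.760 on probes 1, 2 and 3.

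Copy number alone would give a ratio of 1.5. None of the 3 probes was distinguishable from it, with unadjusted p-values against 1.5 of 0.763, 0.440 and 0.145 in the limma fit. With litter as a block the limma p-values were 0.693, 0.407 and 0.0531, the last for the ratio of 1.39 on probe 3. After subtraction of an estimated background the ratios were 1.503, 1.61 and 1.58, with p-values against 1.5 of 0.981, 0.406 and 0.422. The ratios of probes 2 and 3, which lay nearer to the dim end of the tested probes, thus rose with background subtraction. Of 27 tested three-copy genes 21 passed the adjusted threshold. Over the other 26 the ratio averaged 1.37 with an SD of 0.107 between genes and a range of 0.98 to 1.58, and Dscam ranked 5 of 27 by its difference.

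The genes next to Dscam on Mmu16 were too dim to be tested. Of the 3 nearest genes with a named probe on either side, Itgb2l, Gm32358, Pcp4, Mx1 and Fam3b had log2 differences between −0.10 and 0.04, all under the limit for testing. Bace2, the neighbour on the far side from Pcp4 and a relative of the amyloid precursor protein secretase Bace1, was also below that limit. Its mean log2 signal was 6.89 ± 0.25 in Ts1Cje and 6.45 ± 0.096 in euploid mice (SD, n = 9 each), a ratio of 1.36. Over all probes of the array Bace2 had a limma adjusted p of 0.0434. The share of all probes that passed in that fit was not counted, so the Bace2 call has no background beside it.

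The other 7 tested members gave no call. Over their 14 tested probes the log2 differences lay between −0.12 and 0.26, 9 of them above 0, with a median of 0.044, beside a median of 0.016 over all tested probes. The smallest limma adjusted p was 0.997 without and 0.353 with litter as a block. At an unadjusted p under 0.05, 0 of the 14 passed in limma and 0 in the methods' t-test, and 1 passed with litter as a block (Ncam1 probe 3). Of all tested probes 4.01% passed at this level in limma and 7.2% with the block. With all mice and without background subtraction, the 95% confidence intervals of the 14 ratios all lay below 1.5. The highest upper bound was 1.49, for Ncam1 probe 3. With subtraction the log2 difference of that probe was 0.32, and without litter 1 it was 0.34, against 0.26. Intervals under these settings were not set against 1.5. The 13 member probes under the limit had log2 differences between −0.052 and 0.046, with a smallest adjusted p of 0.965 over all probes.

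**Figure D2:**
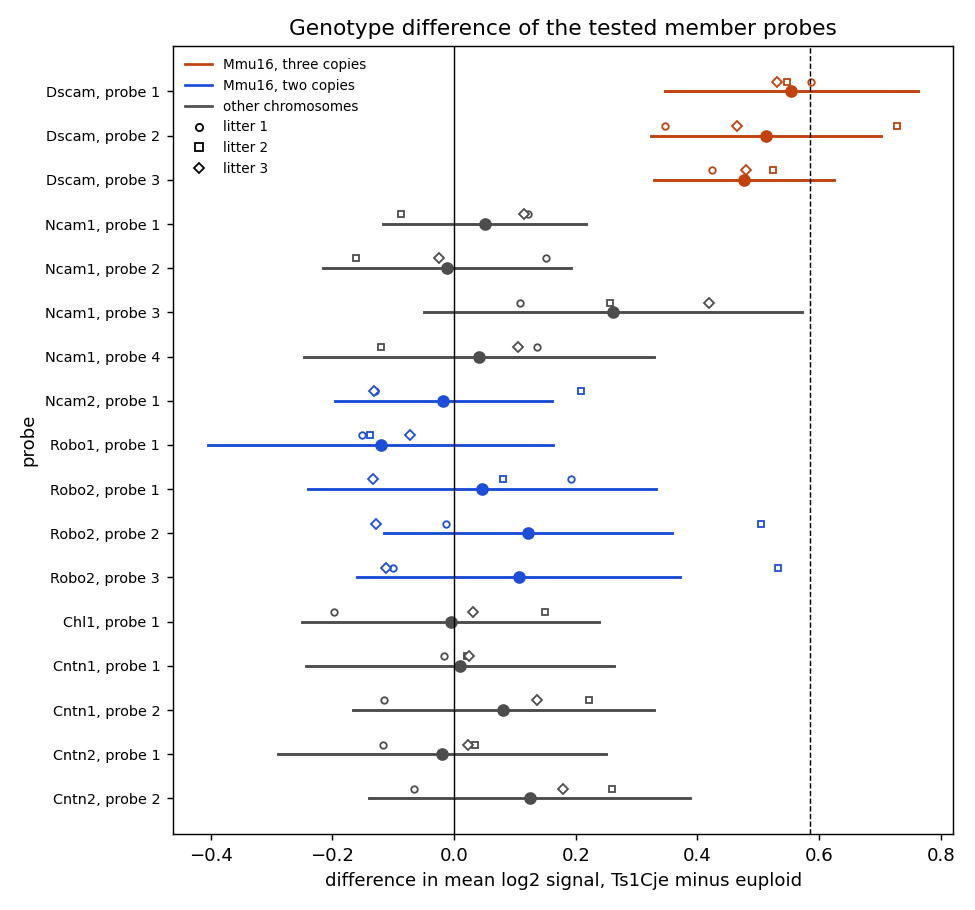
Difference in mean log2 signal, Ts1Cje minus euploid, of the 17 tested member probes (filled points, with 95% confidence intervals over 9 and 9 mice), and the same difference within each litter (small open symbols, 3 and 3 mice). The solid vertical line stands at 0 and the dashed line at a ratio of 1.5. As plotted, without background subtraction, the 3 Dscam intervals reach the dashed line and none of the other 14 does.

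Being on Mmu16 without an additional copy did not go with a call. The 5 tested probes of Ncam2, Robo1 and Robo2 had log2 differences from −0.12 to 0.12 with a median of 0.046. The 9 tested probes of members on other chromosomes ran from −0.02 to 0.26 with a median of 0.041.

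Ncam1, a homophilic adhesion molecule that carries polysialic acid on immature neurons, had 4 tested probes. On probe 1 the euploid mice ran from 11.53 over 11.91 to 12.20 and the Ts1Cje mice from 11.75 over 11.97 to 12.26, with the groups overlapping almost throughout. The ratio was 1.04 (0.92 to 1.16, 95% confidence interval). Probe 3, the Ncam1 probe with the largest difference, ran from 7.40 over 7.84 to 8.34 in euploid and from 7.61 over 8.003 to 8.63 in Ts1Cje mice. Its difference of 0.26 with an SE of 0.149 had the same sign in all 3 litters, 0.11, 0.26 and 0.42, and did not pass (limma adjusted p = 0.997, with litter as a block 0.353). Probe 4 differed by 0.04. Ncam2, the second NCAM of vertebrates, known from olfactory axons, ran from 7.07 over 7.23 to 7.58 in euploid and from 6.99 over 7.29 to 7.499 in Ts1Cje mice, a ratio of 0.99 (0.87 to 1.12).

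Robo1 and Robo2 are receptors for Slit proteins, which repel growing axons and migrating neurons. Robo1 probe 1 ran from 9.02 over 9.46 to 9.96 in euploid and from 8.85 over 9.27 to 9.90 in Ts1Cje mice. Its ratio of 0.92 (0.76 to 1.12) was the lowest of the tested members, and the difference was below 0 in each litter, −0.15, −0.14 and −0.07, without a call. Robo2 probe 1 ran from 9.02 over 9.45 to 9.74 in euploid and from 8.79 over 9.65 to 9.76 in Ts1Cje mice. Its ratio was 1.03 (0.85 to 1.26). Robo2 probes 2 and 3 differed by 0.51 and 0.53 in litter 2, against −0.01 and −0.10 in litter 1 and −0.13 and −0.11 in litter 3. The interaction had unadjusted limma p-values of 0.0313 and 0.0425 and an adjusted p of 0.620 for both. In litter 2 the low values were those of euploid replicates 4 and 6, 7.42 and 7.33 on probe 2 against 7.86 in the other euploid mouse, and these are the arrays of smallest SD. Without them the differences over all litters were 0.04 and 0.02, against 0.12 and 0.11 with them. The part of these arrays in the litter 2 difference was not tested.

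Chl1, a close homolog of L1 that takes part in neurite growth and survival, ran on its probe 1 from 8.89 over 9.11 to 9.78 in euploid and from 8.78 over 9.17 to 9.60 in Ts1Cje mice. The ratio was 0.996 (0.84 to 1.18). L1cam, an adhesion molecule of axons, was dim, between 5.92 and 6.33 in euploid and between 5.85 and 6.18 in Ts1Cje mice. Its probe had a ratio of 0.99 (0.92 to 1.07), which a probe near background can understate.

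The contactins are held to the membrane by a glycolipid anchor. Cntn1 (also called F3) probe 1 ran from 10.30 over 10.70 to 11.27 in euploid and from 10.23 over 10.79 to 10.96 in Ts1Cje mice, a log2 difference of 0.01 with a 95% confidence interval of −0.24 to 0.26. Cntn2 probe 1 ran from 11.02 over 11.39 to 11.99 in euploid and from 10.90 over 11.37 to 11.82 in Ts1Cje mice, a ratio of 0.99 (0.82 to 1.19). In both genes the ranges of the genotypes overlapped.

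**Figure D3:**
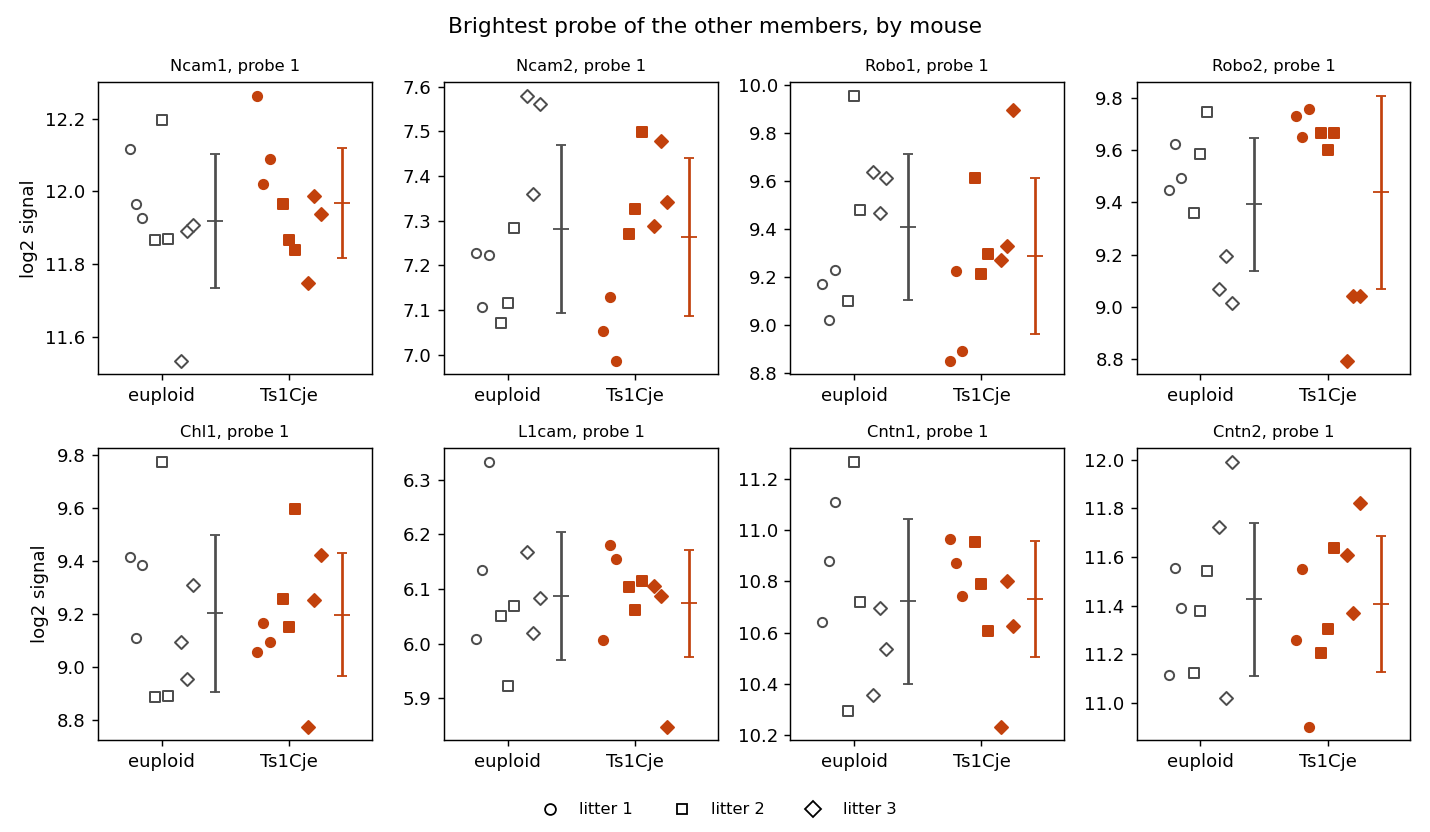
Log2 signal on the brightest probe of the 8 other members with a probe (vertical axes, each with its own range), in euploid (open) and Ts1Cje (filled) mice, with the litter as the shape of the point and the mean ± SD at the right of each genotype (n = 9). The genotypes overlap in every panel, and the Robo2 points of litter 3, at most 9.19, lie below all others.

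Subtracted within the same mouse, Dscam minus another tested member differed between the genotypes by 0.50 (Ncam1) to 0.67 (Robo1) on the log2 scale. This comparison was added after the values were seen, and since the other members differed little it restates the Dscam difference. For pairs of related members the changes between genotypes were −0.07 for Ncam2 minus Ncam1, −0.17 for Robo1 minus Robo2, −0.01 for L1cam minus Chl1 and −0.03 for Cntn2 minus Cntn1, with an exact permutation p adjusted over the 4 pairs of 0.953 for each. The L1cam probe was too dim for its pair to show a shift or its absence.

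In bulk layers, fewer cells of a type and less RNA per cell cannot be told apart. Beside Dscam, the tested precursor markers had a median log2 difference of 0.05 (6 of 8 above 0), the postmitotic granule cell markers 0.07 (7 of 10) and the Purkinje cell markers −0.02 (4 of 8), with 0 of these past the adjusted limma threshold. At an unadjusted p under 0.05, 1 precursor marker was higher and 0 of the other markers of these lists passed. The signals of a list were also summed before taking log2, so that its brightest genes count most. The log2 of the summed signals of the precursor list ran from 14.44 to 14.85 in Ts1Cje and from 14.35 to 14.77 in euploid mice. That of the postmitotic list ran from 14.63 to 15.17 and from 14.51 to 15.19. The lists of other cells went both ways. The median difference was −0.015 for GABAergic interneurons (2 of 7 tested above 0) and −0.20 for the choroid plexus (1 of 2). The single tested markers of microglia and of erythroid cells differed by 0.17 and 0.12. Medians were 1.05 for the meninges (4 of 4) and 0.38 for endothelial cells (9 of 9). They were 0.14 for astroglia (7 of 8) and 0.12 for the oligodendrocyte lineage (7 of 7). In these lists 0 markers passed the adjusted limma threshold without the litter block. At an unadjusted p under 0.05, 3 meningeal, 3 endothelial, 1 astroglial and 1 oligodendrocyte marker were higher. So were 2.96% of all tested named genes. With the block 1 endothelial and 1 astroglial marker passed, while 41 of all 7290 tested named genes passed upward. The log2 of the summed signals of the astroglial list ran from 14.35 to 14.81 in Ts1Cje and from 14.32 to 14.76 in euploid mice. That of the oligodendrocyte list ran from 11.41 to 11.85 and from 11.25 to 11.70. The part of any of these lists in the Dscam difference was not tested.

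More member probes passed for litter than for genotype, as on the whole array. Of the 17 tested member probes 7 (41.2%) passed an adjusted p of 0.05 for litter in limma, Dscam probes 1 and 3 among them, against 28.3% of all tested probes. For genotype 3 (17.6%) passed, all of Dscam, against 0.326% of all tested probes. The study had already listed Dscam as higher in these layers, so this share follows from the choice of gene and its number of probes. The 7 probes that passed for litter belong to 5 genes, and they did not move together. Robo2 probe 1 had log2 means of 9.62 ± 0.13, 9.60 ± 0.13 and 9.03 ± 0.13 in litters 1, 2 and 3 (SD, n = 6 each; limma adjusted p = 5.6e-05). The highest mouse of litter 3, at 9.19, was below the lowest of the other litters, at 9.36. The dimmer Robo2 probes 4 and 5 followed the same order, with means of 7.27, 7.02 and 6.65 and of 7.31, 7.02 and 6.58 (limma adjusted p over all probes 0.00286 and 2.9e-05). Robo2 probes 2 and 3 did not pass, with litter means of 7.78, 7.79 and 7.60 on probe 2.

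Robo1 went the other way, with means of 9.06 ± 0.17, 9.44 ± 0.31 and 9.53 ± 0.23 (limma adjusted p = 0.021). Litter 3 did not overlap with litter 1 in Robo1, while litter 2 overlapped with both. Ncam2 was likewise lowest in litter 1 and highest in litter 3, with means of 7.12, 7.26 and 7.44 (limma adjusted p = 0.0188). Ncam1 differed by probe, since probe 3 was highest in litter 3 (7.75, 7.79 and 8.35, limma adjusted p = 0.000832) and probe 4 was lowest there (7.89, 7.51 and 7.29, limma adjusted p = 0.00148). These Ncam1 probes bind different transcript records. Dscam was lower in litter 3 on probe 1, with 9.83 ± 0.35, 9.85 ± 0.34 and 9.52 ± 0.34 over both genotypes (limma adjusted p = 0.0193), and on probe 3 (limma adjusted p = 0.014). Markers of other cells moved with the litters too. Of the tested markers passing the litter test there were 8 of 9 for endothelial cells, whose mean log2 signal was 8.25, 8.30 and 8.86 in litters 1, 2 and 3, and 5 of 8 for astroglia, at 9.62, 9.79 and 10.21. The mean of the postmitotic granule cell markers was 10.93, 10.66 and 10.59, with 3 of 10 passing. Their part in the litter differences of the members was not tested.

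**Figure D4:**
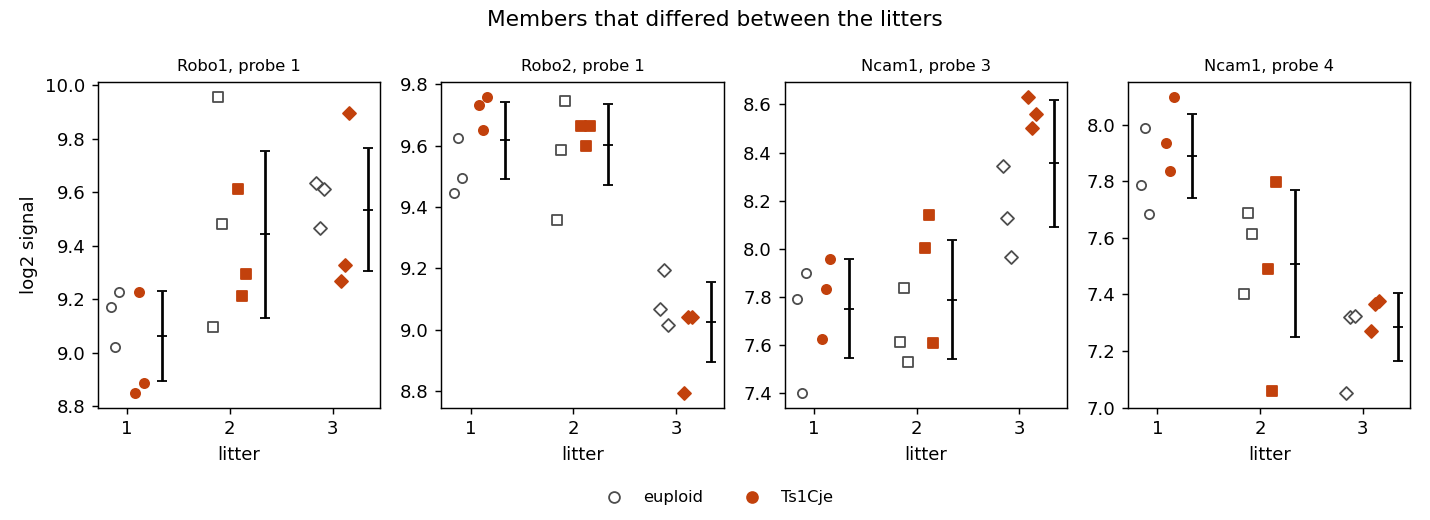
Log2 signal by litter (horizontal axis) on Robo1 probe 1, Robo2 probe 1 and Ncam1 probes 3 and 4 (vertical axes, each with its own range), in euploid (open) and Ts1Cje (filled) mice, with the mean ± SD of the 6 mice of a litter in black. Robo2 falls from 9.60 in litter 2 to 9.03 in litter 3, whereas Robo1 is lowest in litter 1, and the Ncam1 probes go opposite ways.

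No tested member probe passed the genotype by litter interaction after adjustment, with a smallest adjusted limma p of 0.620, and 3 had an unadjusted p under 0.05 (Ncam2 probe 1 and Robo2 probes 2 and 3). Of all tested probes 0.0515% passed after adjustment and 7.93% before.

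Probes of 1 gene were compared over the 18 mice after removal of the genotype means, in 14 pairs. The permutations behind these p-values ignored litter, although several of the probes differed by litter. Dscam probe 1 correlated with probe 2 at r = 0.67 (Spearman's rho 0.64, permutation p = 0.00234 and 0.0051, adjusted 0.00546 and 0.0102) and at 0.66 with litter also removed. Without the 2 mice farthest from the median the value was 0.60. Probes 1 and 3 had r = 0.65 (rho 0.65, permutation adjusted p = 0.00676 and 0.0102), 0.51 without the 2 farthest mice and 0.39 with litter also removed, and probes 2 and 3 had r = 0.53 (rho 0.52, permutation adjusted p = 0.0442 and 0.0498), 0.55 without the 2 farthest mice and 0.33 with litter also removed. Robo2 probes 2 and 3 followed each other at r = 0.93 (rho 0.92, permutation adjusted p = 0.00014 for both). Neither went with Robo2 probe 1, at r = 0.35 and 0.27 (permutation adjusted p = 0.216 and 0.357, rho 0.15 for both). Ncam1 probes 3 and 4 ran against each other, at r = −0.73 (rho −0.76, permutation adjusted p = 0.00238 and 0.00247), −0.61 with litter also removed and −0.65 without the 2 farthest mice. Ncam1 probes 1 and 4 went together at r = 0.68 (rho 0.73, permutation adjusted p = 0.004 and 0.0034), and at 0.35 with litter also removed. The 2 tested probes of Cntn1 had r = 0.82 and those of Cntn2 0.80. A single Ncam1 or Robo2 value can therefore depend on the probe read.

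Dscam was also compared with each of the 7 other tested members over the 18 mice, after removal of the genotype means. The permutations behind the p-values ignored litter. Robo2 had the highest r before litter was removed, 0.77 (rho 0.69, permutation adjusted p = 0.00133 and 0.0139), 0.65 without the 2 farthest mice and 0.45 with litter also removed. Cntn1 had r = 0.60 (rho 0.53, permutation adjusted p = 0.0305 and 0.0889), 0.64 without the 2 farthest mice and 0.42 with litter also removed. The other 5 had r between −0.46 (Ncam2) and 0.44 (Chl1), none with a permutation adjusted p under 0.05. With litter removed the order changed, and r was 0.60 for Robo1 (from −0.01) and 0.49 for Chl1, both above Robo2. Among all tested named genes outside the three-copy segment, the signals most like that of Dscam over the 18 mice belonged to Scai (r = 0.89, rho 0.90), Cobl (0.88, rho 0.88), Zfand2a (0.86, rho 0.86), Enox1 (0.86, rho 0.79) and Mafg (0.81, rho 0.70). These are given as a description, and each r is above those of Dscam probe 1 with Dscam probes 2 and 3 (0.67 and 0.65). With litter also removed their r lay between 0.65 and 0.79, and none of the 5 passed between the genotypes (limma adjusted p = 0.997 for each, log2 differences −0.17 to 0.04).

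The pathways around the members gave no call without the litter block. The 6 lists of relatives, ligands, receptors and effectors held 92 genes, of which 81 had a probe and 53 were tested. In limma 0 of the 53 passed the adjusted threshold, 1 had an unadjusted p under 0.05, and 25 were higher in Ts1Cje, with a median log2 difference of −0.0036. Over all 7290 tested named genes 3644 were higher, 22 passed upward and 3 downward, and the median was −1.1e-05. At an unadjusted limma p under 0.05, 216 of the 7290 were higher and 75 lower in Ts1Cje. With the litter block 1 of the 53 passed upward, as did 41 of the 7290, while 4 of the 7290 passed downward. By litter 16 of the 53 (30.2%) passed, against 25.7% of all tested named genes.

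The gene with the unadjusted call was Robo4, the Robo receptor of blood vessel endothelium. Its log2 signal ran from 7.56 over 7.95 to 8.61 in euploid and from 8.0 over 8.33 to 9.17 in Ts1Cje mice, so that the groups overlapped. The ratio was 1.38, at a log2 difference of 0.46 with an SE of 0.16 (limma adjusted p = 0.876, with litter as a block 0.034), and the litters gave 0.31, 0.29 and 0.78. The mean over the Robo4 probes differed by 0.14 only. Of the tested markers of endothelial cells 9 of 9 had a difference above 0, with a median of 0.38. Of these, 3 had an unadjusted limma p under 0.05 (2.96% of all tested named genes were higher at that level). With the litter block 1 passed the adjusted threshold. The log2 of their summed signals ran from 11.82 to 13.10 in Ts1Cje and from 11.76 to 12.59 in euploid mice. Meningeal markers had a median difference of 1.05 (4 of 4 tested above 0, 3 at an unadjusted limma p under 0.05). The log2 of the summed signals of these markers ran from 10.57 to 13.45 in Ts1Cje and from 10.24 to 12.32 in euploid mice. The part of endothelial and meningeal cells in the Robo4 difference was not tested.

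Of the ligands and effectors of the Robo receptors 3 of 8 were tested. Slit2, a Slit ligand, had a ratio of 0.99, Gpc1, a heparan sulphate proteoglycan that binds Slits, 0.99, and Enah, an actin regulator downstream of Robo, 1.13 (limma adjusted p = 0.997 for each). Among 8 tested netrins and netrin receptors, which include partners of Dscam, Unc5c, a repulsive netrin receptor, had a ratio of 0.95, Neo1 (neogenin) 1.13, Unc5b 1.16 and Draxin, a secreted antagonist of netrin, 1.19. Draxin had the largest SD among the relatives named here, with signals from 8.999 to 10.26 in euploid animals, and passed for litter (limma adjusted p = 0.005).

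Among 10 tested partners and effectors of Dscam, the p21-activated kinase Pak2, itself on Mmu16 outside the segment, had a ratio of 1.11, the scaffold Magi1 1.12, the tubulin Tubb3 0.94, the kinesin Kif5c 0.998 and the ubiquitin hydrolase Uchl1 0.98. The Pak2 difference came from litter 2, at 0.65, against −0.20 and −0.00 in litters 1 and 3. Among 11 tested genes of polysialic acid and the partners of Ncam and L1, St8sia2, the polysialyltransferase of the embryonic and newborn brain, had a ratio of 0.92 with the same sign in the 3 litters (−0.15, −0.09 and −0.14). Ankyrin G (Ank3) had 1.09, the spectrin Sptbn1 1.15 (litter differences −0.22, 0.84 and 0.01), the semaphorin signalling protein Dpysl2 0.96 and the prion protein Prnp 1.01. Of these 10 genes 0 passed, with a limma adjusted p of 0.997 or above.

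The remaining relatives behaved alike. Nrcam, an L1 family member, had a ratio of 0.95 and Cntn6, a contactin, 1.04. Of 18 tested other neural adhesion molecules with immunoglobulin domains, Lsamp and Ntm, both anchored by a glycolipid, had ratios of 1.11 and 0.92, Cd47, which binds the receptor Sirpa, 0.99, and Igdcc3 and Igdcc4 0.94 and 0.92. Lsamp and Cd47 lie on Mmu16 outside the three-copy segment. Igdcc4 was lower in each litter (−0.15, −0.07 and −0.14), at a limma adjusted p of 0.997.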

How the data were processed

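The deposited values are log2 signals: the authors made biotin-labelled RNA from each layer, read it on Illumina arrays as 1 mean over beads per probe, and scaled each array to a common mean. The number of arrays limits the precision. Samples were grouped by genotype from their labels and by litter from the study's slides. Symbols came from the platform annotation, updated through Entrez identifiers to RefSeq (29921 of 29976 probes with 1 symbol matched); 16646 probes had none and 10 several.

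The brightest 25% of probes by mean signal, 11658 of 46632 (lowest mean 7.07), was tested with limma 3.58.1 in R 4.3.3, two-sided, with Benjamini-Hochberg adjustment at 0.05 over all tested probes, without a litter term. A gene is represented by its brightest tested probe. A ratio is 2 to the power of the log2 difference. Exact permutation tests used SciPy 1.17.1; correlation p-values used 100000 permutations. The fits were tested on simulated data. Mice of 1 litter share a slide and parents, which pairs the samples by litter, so litter was also fitted as a block.

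Named relatives are, in each list, up to 3 genes with the smallest p and up to 2 with the highest signal, beside any past the threshold. The members and lists were chosen with earlier results of these data known. Alternatives changed the scaling (quantile, median), the filter (none, 8000 or 15000 probes), the block, the test (the methods' t-test), the background (percentile 5 subtracted, floor 16), the probe rule (mean over probes) or the mice: without 1 litter, without the 2 euploid arrays named cerebellum, without the 2 of smallest SD, or without 1 euploid mouse of unclear sex. The subtraction of each member from Dscam, and the test against 1.5 after background subtraction, were chosen after seeing the data. Whole cerebellum samples and quantitative PCR were not analysed here.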

Additional observations from a re-analysis of the deposited data

Results flagged for a closer look

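Of 84 groups of 9 mice examined, 8 (9.52%) held a mouse whose gap to its nearest neighbour was large for the range of its group; chance flags about 1 in 20 groups. Among the members, Ncam1 probe 1 was low in euploid replicate 7, at a log2 signal of 11.53 against 11.87 to 12.20 in the others. Cntn1 probe 1 was low in Ts1Cje replicate 7, at 10.23 against 10.61 to 10.96. Cntn2 probe 2 was high in euploid replicate 9, at 7.85 against 6.80 to 7.30. Among the relatives, Ts1Cje replicate 7 was also low for Enah (8.72), Slit2 (6.75) and Cd47 (10.64, against 11.12 to 11.60 in the other Ts1Cje mice). Gpc1 was low in Ts1Cje replicate 1, at 12.02, and Slit2 was high in euploid replicate 5, at 8.28, one of the arrays with cerebellum in its source label. No group of Dscam was singled out.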

How the results depend on the processing

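Among 913 alternative values of 82 results, 835 kept direction and side of the threshold. Dscam was higher in Ts1Cje under every alternative on all 3 probes. Log2 differences were 0.54 to 0.63 on probe 1, 0.41 to 0.69 on probe 2 and 0.43 to 0.66 on probe 3. The mean over the 3 probes differed by 0.51. Probe 1 lost its call without litter 1 (0.54) and without litter 2 (0.56). Probe 2 lost it without litter 2 (0.41), without litter 3 (0.54) and without the 2 arrays of smallest SD (0.45, limma adjusted p = 0.0556), and probe 3 without litter 2 (0.45, limma adjusted p = 0.207). Leaving out a litter leaves fewer mice. With litter as a replicate block the Dscam difference was 0.55 and the exact permutation test within litters gave p = 0.00025; the block changed no call among the members, and of the relatives it added Robo4.

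Probes called higher in Ts1Cje numbered 34, and 62 with the litter block, 16, 8 and 14 without litters 1, 2 and 3, 22 without the cerebellum-labelled arrays and 18 without those of smallest SD. Probes called lower numbered 4, and 7 after quantile normalization and 2 with the 8000 brightest probes or without litter 2. At an unadjusted p, 367 were higher and 100 lower, against 295 and 505 after quantile normalization, which turns the split. The split was 329 and 58 after scaling by the median and 997 and 1339 with no filter. Over all alternatives 175 to 997 were higher and 46 to 1339 lower.

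None of the 14 other tested member probes passed in any of 211 alternatives (smallest adjusted p = 0.353), and signs of members and named relatives turned in single settings, among them Sptbn1 (0.21 with all mice) and Pak2 (0.15). Without litter 1 these were Ncam1 probe 4 (−0.0069), Ncam2 probe 1 (0.039), Robo2 probe 1 (−0.027), Chl1 probe 1 (0.090), Cntn2 probe 1 (0.029), Kif5c (0.0061), Uchl1 (0.016), Cntn6 (−0.0080), Ncam2 minus Ncam1 (0.025) and Cntn2 minus Cntn1 (0.0057). Without litter 2 they were Ncam1 probe 2 (0.063), Robo2 probe 2 (−0.071), Robo2 probe 3 (−0.11), Pak2 (−0.10), Tubb3 (0.021), Slit2 (0.10), Cd47 (0.017), Prnp (−0.0042), Sptbn1 (−0.11) and L1cam minus Chl1 (0.022). Without litter 3 they were Ncam2 probe 1 (0.039), Kif5c (0.019), Gpc1 (0.037), Cd47 (0.00096), Prnp (−0.022), Ncam2 minus Ncam1 (0.022) and L1cam minus Chl1 (0.041). Without the cerebellum-labelled arrays they were Ncam1 probe 2 (0.10), Chl1 probe 1 (0.032), Slit2 (0.093), Cd47 (0.078) and Prnp (−0.0036). Without the arrays of smallest SD they were Ncam1 probe 2 (0.017), Cntn1 probe 1 (−0.052), Prnp (−0.061), L1cam minus Chl1 (0.073) and Cntn2 minus Cntn1 (0.0047). Quantile normalization turned Ncam1 probe 4 (−0.0087), Kif5c (0.00025) and L1cam minus Chl1 (0.014). Taking the mean over probes in place of the brightest probe turned Cntn2 (0.047), Unc5c (0.059), Nrcam (0.040) and Dpysl2 (0.022). Scaling by the median turned Kif5c (0.0015). Background subtraction turned L1cam minus Chl1 (0.041). The methods' t-test before log2 turned Cntn1 probe 1 (−0.0083). Leaving out the euploid mouse with neither Xist nor Y-linked signal turned Kif5c (0.022).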
